A study of Mus musculus with 3 samples.

Results

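The respiratory chain is the set of 4 protein complexes of the mitochondrial inner membrane that pass electrons from NADH and succinate to oxygen, and it is described here together with ATP synthase, called complex V. Its genes were chosen by symbol and not by any measured value. The rule took Nduf followed by a, b, c, s or v and a digit, the prefixes Uqcr, Cox4 to Cox8 and Atp5, the genes Sdha to Sdhd, and every symbol with the prefix mt-. It found 99 of the 21899 gene symbols in the table, of which 86 lie in the nuclear genome and 13 in the mitochondrial genome. Complex I (NADH dehydrogenase) has 36 nuclear and 7 mitochondrial genes, complex II (succinate dehydrogenase) 4 nuclear genes, complex III (cytochrome bc1) 8 and 1, complex IV (cytochrome c oxidase) 21 and 3, and complex V 17 and 2. Ndufa4, a subunit of cytochrome c oxidase in spite of its name, was counted with complex IV, and so were its paralogue Ndufa4l2, the supercomplex factor Cox7a2l and Cox5b-ps, a pseudogene by its name.

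RNA was sequenced from MIN6, a line grown from a mouse insulinoma that still produces insulin and stands in for the beta cells of the pancreas. Cells given an siRNA against Srsf1 (siSRSF1, also named siASF in the labels), an siRNA against Srsf2 (siSRSF2, also siSC35) and a negative control siRNA (siNC) gave 1 library each. SRSF1 and SRSF2 are SR proteins, which bind pre-mRNA and promote its splicing. The sources used here do not give the siRNA sequences, doses or times. All groups are the same tumour-derived line, and each siRNA was read once, so no difference below has a replicate check, no test was run, and each interval is a 95% counting interval of these libraries.

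In a beta cell, ATP made by this chain closes potassium channels in the plasma membrane, and the calcium entry that follows releases insulin. Complexes I, III and IV pump protons out of the matrix, complex II feeds electrons in without pumping, and complex V uses the returning protons to make ATP. The mitochondrial genome encodes the central proton-pumping subunits and its genes are transcribed as long precursors that are cut at the tRNAs between them, while all other subunits are made from nuclear genes and imported.

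Totals were 14478045 reads in siSRSF1, 14682576 in siSRSF2 and 12688334 in siNC. Srsf1 had 3171 reads in siSRSF1 and 4070 in siNC, a ratio of scaled counts of 0.683 (0.652 to 0.716). A correction for GC content moved that ratio to 0.748. Srsf1 was lower in siSRSF2 too, with 4105 reads and a ratio to siNC of 0.847 (0.811 to 0.884). Between the siRNA libraries, siSRSF1 over siSRSF2, its ratio was 0.807 (0.770 to 0.846). Srsf2 had 487 reads in siSRSF2 and 1193 in siNC, a ratio of 0.343 (0.308 to 0.381). All 10 beta-cell markers had reads in every library, although Slc2a2 had 7 reads in siSRSF2, and their FPKM summed to between 44270 and 50240. FPKM is the read count scaled by gene length and library total, as the authors computed it. The 19 markers of other cell types summed to 148 FPKM in siSRSF1, 119 in siSRSF2 and 117 in siNC, with 6, 10 and 9 of them at 0 reads. Gcg and Sst, hormones of other islet cells, made up most of these sums. Cd68, a macrophage marker, had 232 reads in siSRSF1, 55 in siSRSF2 and 56 in siNC, and Krt7, a duct marker, had 659, 313 and 282. The part of such cells in the results was not tested. In RNA from a whole culture, fewer cells of a kind and less RNA per cell cannot be told apart.

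Much of the mitochondrial signal is bounded by sequence that the mouse nuclear genome repeats. GENCODE M21 annotates 7 pseudogenes on chromosome 1 of GRCm38, between bases 24611535 and 24616197, that copy mitochondrial genes, and 0 of them are lines of the deposited table. The whole of mt-Co2, mt-Atp6, mt-Co3, mt-Nd3 and mt-Nd4l, but for the last bases, has such a copy. The first 60 bases of mt-Atp6, a proton channel subunit of ATP synthase, and of mt-Nd3, a membrane subunit of complex I, are shown above the same bases of their copies to show how alike they are. They were cut from the GENCODE M21 transcripts, and capitals mark a base that differs between the gene and its copy.

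mt-Atp6 (chrM:7927-7986, plus strand): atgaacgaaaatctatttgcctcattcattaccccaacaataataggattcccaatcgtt
Gm10925 (chr1:24614592-24614651, minus strand): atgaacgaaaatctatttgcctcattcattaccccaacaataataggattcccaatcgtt
mt-Nd3 (chrM:9459-9518, plus strand): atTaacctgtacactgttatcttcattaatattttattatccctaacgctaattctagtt
Gm28438 (chr1:24613060-24613119, minus strand): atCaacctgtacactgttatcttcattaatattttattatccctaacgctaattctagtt

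The mt-Atp6 copy matched at 678 of the gene's 681 bases with 0 mismatches, and the mt-Nd3 copy aligned over 345 of 348 bases with 1 mismatch. The mt-Co2 copy Gm28661 covered 681 of 684 bases, the mt-Co3 copy Gm28437 783 of 784 and the mt-Nd4l copy Gm10222 294 of 297, each at 100% identity. Of mt-Nd4, the first 876 of 1378 bases were copied at 100%, and of mt-Co1 the last 483 of 1545 bases at 99.8%. A second pseudogene, Gm13340 on chromosome 2, matched all 1545 bases of mt-Co1 at 97.6%. No copy of at least 97% identity was annotated for mt-Nd1, mt-Nd2, mt-Nd5, mt-Nd6 or mt-Cytb. mt-Atp8 has no annotated copy of its own, but it lies between mt-Co2 and mt-Atp6, whose copies flank the same place on chromosome 1.

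The levels of the mitochondrial genes split between those that lie wholly inside this copied stretch and the rest. The edges of the stretch fall within mt-Co1 and mt-Nd4, which were among the highly counted genes. mt-Co1, the catalytic subunit of cytochrome c oxidase, had 7559 FPKM in siSRSF1, 6122 in siSRSF2 and 7495 in siNC, the third highest of all genes in each library. mt-Cytb, the cytochrome b of complex III, had 3237 FPKM in siSRSF1, 2679 in siSRSF2 and 3291 in siNC. Among complex I genes outside the stretch, mt-Nd1 had 3062, 2527 and 3584 FPKM in siSRSF1, siSRSF2 and siNC, and mt-Nd6, the lowest of them, had 741, 901 and 1060. mt-Nd4, which the copy covers in part, had 1131 FPKM in siSRSF1, 1072 in siSRSF2 and 1160 in siNC.

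Inside the stretch every level was far lower. mt-Co2 had 67.3 FPKM in siSRSF1, 50.8 in siSRSF2 and 67.2 in siNC, and mt-Co3 had 27.4, 28.1 and 26.7 in the same order. These encode the other core subunits of the complex that mt-Co1 belongs to, in which the 3 proteins are present in equal numbers. mt-Atp6 had 17.5 FPKM in siSRSF1, 17.0 in siSRSF2 and 21.5 in siNC. mt-Nd3 had 19 reads in siSRSF1, 13 in siSRSF2 and 27 in siNC, mt-Nd4l had 20, 15 and 28, and mt-Atp8 had 1, 0 and 2. A count of 0 allows up to 3 reads, which is 0.204 CPM (reads scaled to the library total) in siSRSF2. Together the 6 genes inside the stretch took 1190 reads in siSRSF1, 1032 in siSRSF2 and 1092 in siNC, against 380346, 325562 and 349093 reads for the other 7. The sources used here do not say how the authors treated reads that match several places, and its part in these levels was not tested. The counts of the 6 genes are therefore uncertain as levels of mitochondrial RNA.

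**Figure D1:**
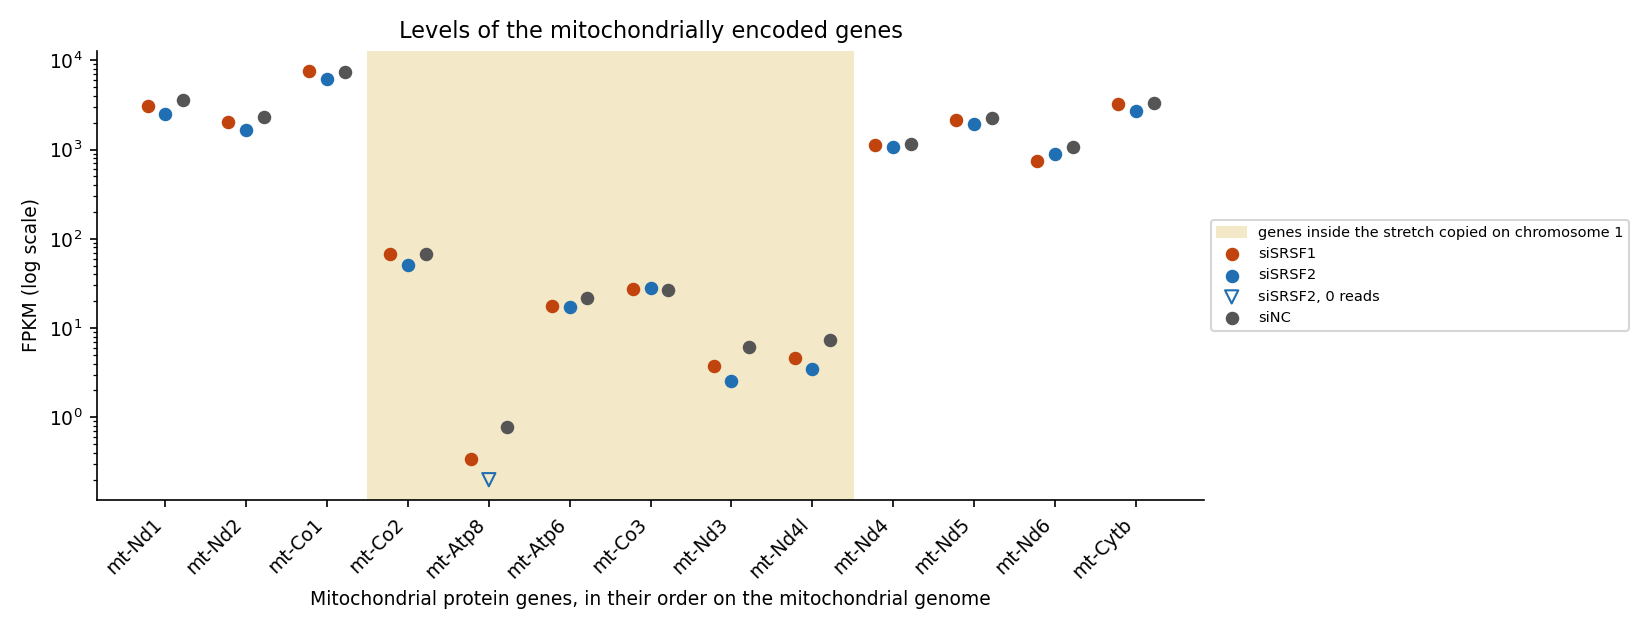
Levels of the 13 mitochondrial protein genes in their order on the mitochondrial genome, as FPKM on a log axis, with 1 point per library (siSRSF1, siSRSF2, siNC) and an open triangle for the 0 reads of mt-Atp8 in siSRSF2. The 6 genes in the shaded stretch lie at or below 67.3 FPKM in all libraries, and the 7 others at or above 741.

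Nuclear members spanned a wide range of levels. The median over the 86 genes was 39.0 FPKM in siSRSF1, 37.1 in siSRSF2 and 35.1 in siNC. By complex, the medians in siNC ran from 26.1 FPKM for complex I through 31.4 for complex IV and 44.0 for complex V to 52.2 for complex II and 52.4 for complex III. The set of complex IV holds isoforms of other tissues, and 3 of them, Cox4i2, Cox8b and Cox8c, were at 0 FPKM in siNC. Among the highest nuclear members were Cox8a, a small subunit of complex IV, with 351 FPKM in siSRSF1, 346 in siSRSF2 and 199 in siNC, and Atp5a1 and Atp5b, the catalytic head of ATP synthase. Atp5b had 292 FPKM in siSRSF1, 264 in siSRSF2 and 253 in siNC, and Atp5a1 had 273, 267 and 269.

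**Figure D2:**
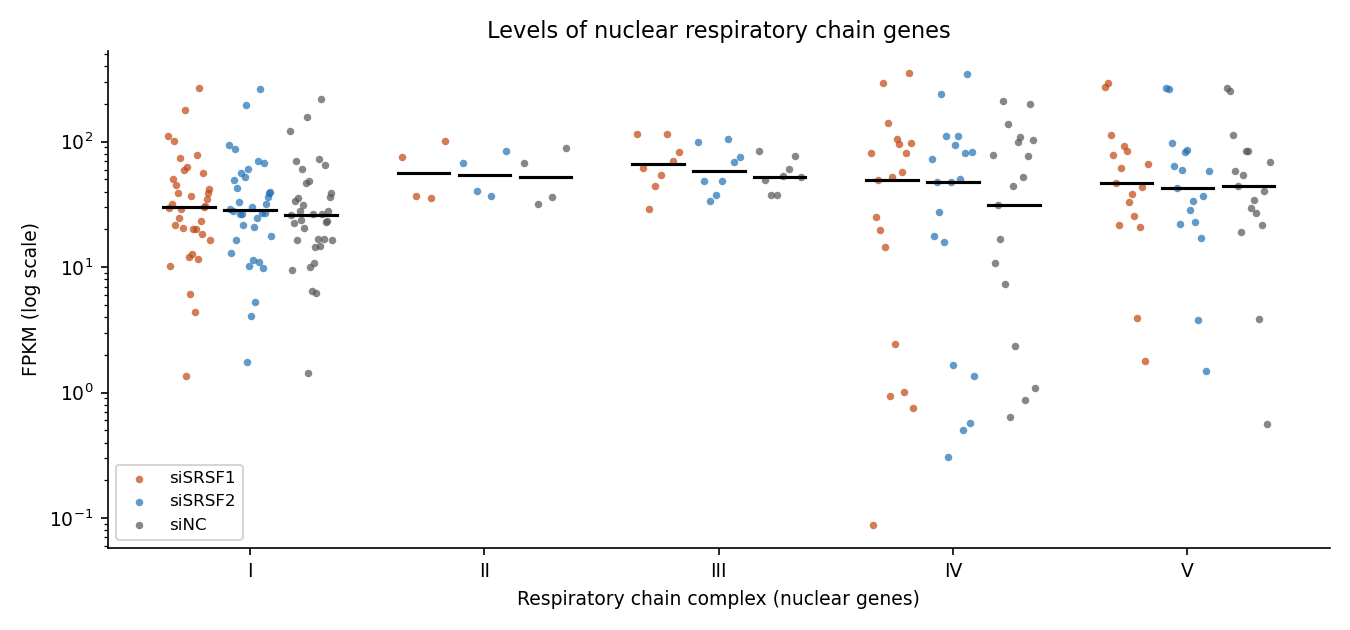
Levels of the nuclear respiratory chain genes by complex, as FPKM on a log axis, with 1 point per gene, in siSRSF1, siSRSF2 and siNC from left to right within each complex. Bars are medians over all genes of the complex, and genes at 0 reads are not drawn; complex I has the lowest median in each library.

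FPKM depends on the length the table assigns to a gene, and that length exceeds the main transcript for several members. For Atp5l, a membrane subunit of ATP synthase, the table gives 6443 bases and the GENCODE M21 main transcript has 544, a ratio of 11.8, so its 3.91 FPKM in siSRSF1, 3.82 in siSRSF2 and 3.83 in siNC understate reads per length of mRNA. Ratios of the same gene between libraries are not touched by this unless they are corrected for length. Length classes and length corrections below use the length in the table, so they carry this limit. When reads were scaled by the length of the main transcript instead, the medians in siNC were 43.8 for complex I, 57.7 for complex IV, 71.3 for complex III, 75.3 for complex II and 119 for complex V. The place of complex V thus depends on the length used.

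The balance between the genomes differed between libraries. Mitochondrial genes took 2.635% of all reads in siSRSF1 (2.627 to 2.644), 2.224% in siSRSF2 (2.217 to 2.232) and 2.760% in siNC (2.751 to 2.769). Nuclear members took 0.922% in siSRSF1, 0.858% in siSRSF2 and 0.815% in siNC. For each nuclear member read there were thus 2.86 mitochondrial reads in siSRSF1 (2.84 to 2.88), 2.59 in siSRSF2 (2.58 to 2.61) and 3.39 in siNC (3.36 to 3.41). Both siRNA libraries lay below the control, and they share that control, so these are not separate observations of it.

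The siSRSF1 library was set against siNC first. Ratios are of TMM-scaled read counts, and a gene was compared when at least 1 library of the pair had 20 reads. Most nuclear members lay above siNC, by little, with a median log2 ratio of 0.17 over the 79 genes compared, against 0.00 over all 11602 genes compared. Of the 79, 60 lay above 0, where 50.5% of all genes did. After a correction for gene length the median was 0.07 and 45 of the 79 lay above 0, against 50.8% of all genes. The counting interval lay above 1 for 43 and below 1 for 7, against 27.2% and 25.5% of all genes. Members have more reads than most genes, so their intervals exclude 1 more easily. Summed over nuclear members, 133528 reads in siSRSF1 stood against 103399 in siNC, a scaled ratio of 1.13 (1.12 to 1.14).

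Calls by size were few. A gene was called at a 2-fold ratio with an interval that excludes 1, which marked 2.4% of all genes as higher and 1.2% as lower. Of the 91 members compared, 2 were called higher and 0 lower, a share near that background. Cox5a, a matrix-side subunit of complex IV on chromosome 9, had 769 reads in siSRSF1 and 288 in siNC, a ratio of 2.34 (2.04 to 2.69). Atp5o, the oligomycin sensitivity subunit in the peripheral stalk of ATP synthase, had 51 reads in siSRSF1 and 14 in siNC, a ratio of 3.12 (1.74 to 6.25). Atp5o is counted on few reads and is uncertain: its symbol has 2 overlapping records, a pseudogene copies 76.7% of its transcript, and 35.6% of its exon bases are shared with genes on the opposite strand.

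At 1.5-fold, 7 of the 91 members (7.69%) were higher and 0 lower, against 6.09% and 4.29% of all genes. The share called higher was thus near that background. None of the 7 belonged to complex I or to complex II, which has only 4 genes. Complex IV held 4 of them, complex III 2 and complex V 1, counts too small to set the complexes apart. After a smooth correction for gene length 4 remained, Atp5o, Cox5a, Cox6a2 and Uqcrfs1, while Cox8a, Uqcrq and Cox5b stood at 1.45, 1.49 and 1.43, and 5 members were lower (Ndufb9, Uqcrb, mt-Nd3, mt-Nd4l and mt-Nd6), against 5.48% and 4.55% of all genes. Uqcrfs1, the Rieske iron-sulfur protein of complex III, had 2288 reads in siSRSF1 and 1056 in siNC, a ratio of 1.90 (1.77 to 2.05). Uqcrq, a small subunit of the same complex, had 2205 reads in siSRSF1 and 1209 in siNC, a ratio of 1.60 (1.49 to 1.72). In complex IV, Cox8a had 3145 reads in siSRSF1 and 1562 in siNC, a ratio of 1.77 (1.66 to 1.88). Cox5b, which sits beside Cox5a on the matrix side, had 1132 reads in siSRSF1 and 633 in siNC, a ratio of 1.57 (1.42 to 1.73). A near-identical copy in another gene covers 45.1% of the Cox5b transcript, so its count is uncertain too. Cox6a2, the isoform of heart and skeletal muscle, had 142 reads in siSRSF1 and 63 in siNC, a ratio of 1.97 (1.46 to 2.70). The members of complex III and complex IV were thus far from uniform, since Cox4i1, Cox7c and Uqcrc2 had ratios of 1.03, 1.06 and 1.03. Pseudogenes copy 58.3% of the Cox7c transcript, so the count of Cox7c is uncertain.

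In complex I no nuclear gene reached 1.5-fold in siSRSF1. Its 36 nuclear genes had a median log2 ratio of 0.23, with 27 above 0, 21 with an interval above 1 and 3 with an interval below 1. Accessory subunits, which surround the catalytic core, had a median of 0.25 over 29 genes, and the 7 core subunits of the matrix arm had 0.12. Ndufa13, an accessory subunit also known as GRIM-19, had 907 reads in siSRSF1 and 531 in siNC, the highest ratio of the complex at 1.498 (1.34 to 1.67). After GC correction it stood at 1.25, below Ndufb6 and Ndufa2, both at 1.425, and Ndufa12 at 1.412. Genes on the opposite strand share 29.98% of the Ndufa13 exon bases (Tssk6) and 39% of those of Ndufb6 (Smim27). Whether strand was kept is not known, so the counts of Ndufa13 and Ndufb6 are uncertain. A pseudogene copies 36.2% of the Ndufa12 transcript, so the count of Ndufa12 is uncertain too. Ndufs1, the largest core subunit and a carrier of iron-sulfur clusters, had 1350 reads in siSRSF1 and 1509 in siNC, the lowest ratio among its nuclear genes with at least 100 reads at 0.785 (0.729 to 0.845). It is also the longest member by the length in the table, at 8086 bases, but its main transcript has 2661 bases and is not the longest.

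In complexes II and V no gene but Atp5o passed 1.5-fold. Complex II had a median log2 ratio of 0.18 in siSRSF1 over its 4 genes. Sdhb, its iron-sulfur subunit, had 1189 reads in siSRSF1 and 901 in siNC (ratio 1.16, 1.06 to 1.26), and Sdhc, a membrane anchor, had 1668 and 1501 (0.975, 0.908 to 1.05). Complex V had a median of 0.10 over 17 genes, with 8 intervals above 1 and 1 below. Atp5d, a subunit of the rotating central stalk, had 2175 reads in siSRSF1 and 1430 in siNC, a ratio of 1.33 (1.25 to 1.43). Atp5pb, the long subunit of the peripheral stalk, had 3917 reads in siSRSF1 and 3596 in siNC, a ratio of 0.955 (0.913 to 1.00). Uqcrb of complex III stood at 0.780 (370 reads in siSRSF1 and 416 in siNC) and Cox7a2l at 0.885 (2051 and 2032 reads). Pseudogenes copy 62.8% of the Uqcrb transcript, 43.4% of the Atp5pb transcript and 31.2% of the Cox7a2l transcript, so these counts are uncertain.

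**Figure D3:**
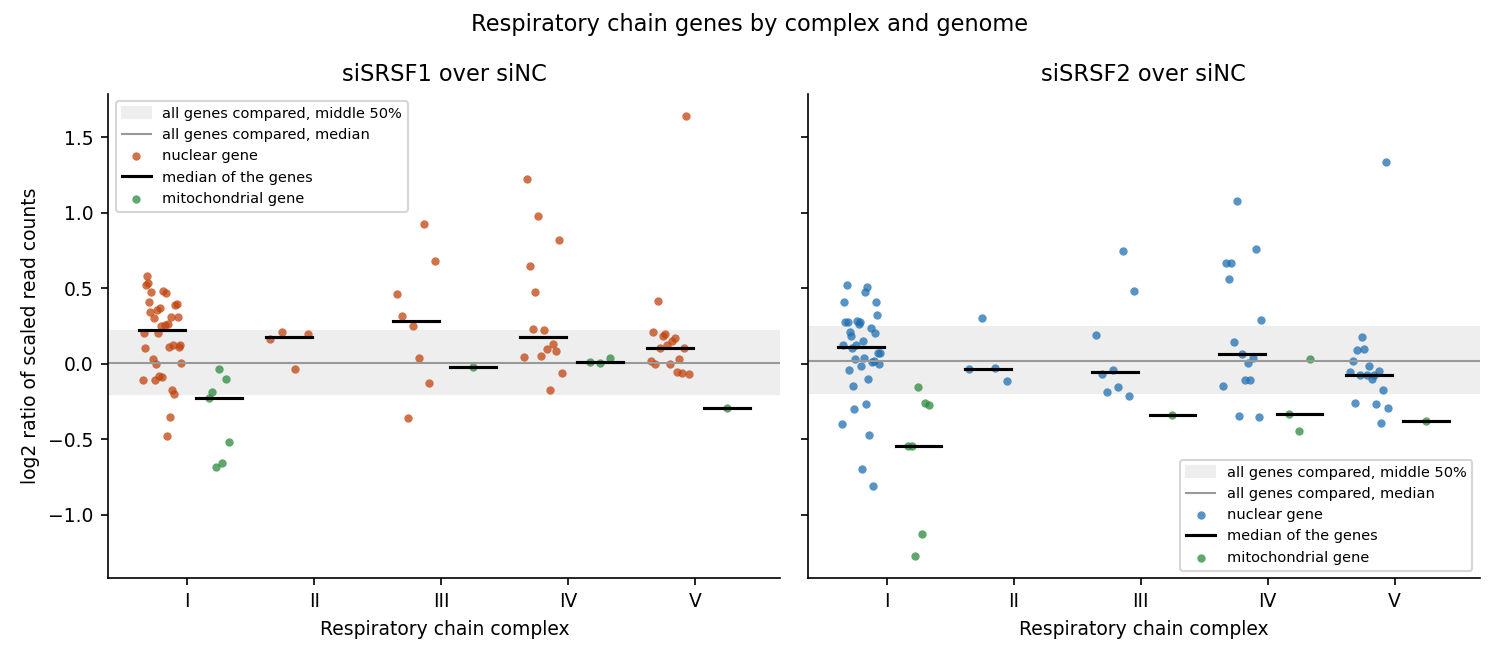
Log2 ratio of scaled read counts for each member compared, by complex, with siSRSF1 over siNC on the left and siSRSF2 over siNC on the right; nuclear genes are in the library colour, mitochondrial genes in green, bars are medians, and the grey band holds the values of all genes compared between their lower and upper quartiles. The medians of nuclear complex I, 0.23 and 0.11, lie above those of mitochondrial complex I, -0.23 and -0.55.

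Mitochondrial genes did not share the shift of the nuclear ones in siSRSF1. Their median log2 ratio was -0.14 over 12 genes, with 3 above 0, 1 interval above 1 and 6 below. The intervals of the genes with most reads are narrow and exclude 1 at small shifts. All 7 complex I genes lay below siNC. mt-Nd6 had 5566 reads in siSRSF1 and 6983 in siNC, a ratio of 0.699 (0.675 to 0.724). mt-Nd1 had 42429 reads in siSRSF1 and 43519 in siNC (0.855, 0.844 to 0.867), and mt-Nd2 had 30953 and 30853 (0.880, 0.866 to 0.894). mt-Nd5 stood at 0.933 and mt-Nd4 at 0.976. Of the genes outside complex I, mt-Cytb stood at 0.984 (0.972 to 0.997), mt-Co1 at 1.01 (1.00 to 1.02), mt-Co2 at 1.00 (0.895 to 1.12) and mt-Co3 at 1.03 (0.868 to 1.21). mt-Atp6 stood at 0.816 (0.659 to 1.01), mt-Nd3 at 0.624 (0.324 to 1.15) and mt-Nd4l at 0.633 (0.335 to 1.15), intervals that include 1.

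The direction of the mitochondrial median in siSRSF1 depended on base composition. Mitochondrial genes had a median GC content of 37.1%, against 50.2% for all genes compared, and genes of low GC content lay below siNC in general, at a median log2 ratio of -0.14 for GC contents from 32.2% to 41.9%. After a smooth GC correction the mitochondrial median was 0.04, the reverse sign. Of the 7 genes partly or wholly outside the copied stretch, 5 had corrected ratios above 1. mt-Nd6 (0.808) and mt-Nd1 (0.960) stayed below 1. Whether the GC trend has a technical or another source was not tested.

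mt-Nd6 stands apart by position as well as by value. It is the only one of the 13 genes on the minus strand of the mitochondrial genome (bases 13552 to 14070), and it overlaps the end of mt-Nd5 by 2.70% of its bases. The sources used here do not say whether strand was kept, so reads from the opposite strand cannot be told apart from its own.

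In the siSRSF2 library the nuclear members as a whole lay at the level of siNC. The median log2 ratio was 0.03 over 80 genes, against 0.02 over all 11611 genes compared, and the summed nuclear ratio was 1.02. Above 0 lay 44 of 80, where 52.6% of all genes did, and intervals above and below 1 numbered 26 and 16, against 28.1% and 25.4% of all genes. The 2-fold rule marked 2.51% of all genes as higher and 1.04% as lower. Of 92 members, 2 were called higher and 2 lower, again close to that background.

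Both genes called higher in siSRSF2 are nuclear. Cox6a2 had 159 reads in siSRSF2 and 63 in siNC, a ratio of 2.11 (1.57 to 2.88). Atp5o had 43 reads in siSRSF2 and 14 in siNC, a ratio of 2.53 (1.38 to 5.10), under the reservations given for it above. The genes called lower were mt-Nd3, at 0.414 (0.191 to 0.811), and mt-Nd4l, at 0.459 (0.223 to 0.871), which rest on 13 and 15 reads in siSRSF2 and lie inside the copied stretch.

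The genes that led in siSRSF1 also lay above siNC in siSRSF2, with the same control library on the bottom of both ratios. Uqcrfs1 had 2112 reads in siSRSF2, a ratio of 1.68 (1.56 to 1.81), and Cox8a had 3148, a ratio of 1.69 (1.59 to 1.80). Cox5a had 546 reads in siSRSF2, a ratio of 1.59 (1.38 to 1.84). Uqcrq, Cox5b and Ndufa13 stood at 1.40, 1.47 and 1.44, with the reservations given above for Cox5b and Ndufa13. Cox5b-ps, whose whole sequence has a copy in Cox5b and whose count is uncertain for that reason, had 157 reads in siSRSF2 and 83 in siNC (1.58, 1.21 to 2.10). At 1.5-fold, 6 members (6.52%) were higher and 4 (4.35%) lower, near the 7.22% and 4.3% of all genes.

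Ndufs4 and Ndufb5, both accessory subunits of complex I, were lower in siSRSF2. Ndufs4, whose loss in mice causes a fatal complex I deficiency, had 391 reads in siSRSF2 and 575 in siNC, a ratio of 0.571 (0.501 to 0.650). Ndufb5, a subunit of the membrane arm, had 301 reads in siSRSF2 and 409 in siNC, a ratio of 0.618 (0.531 to 0.719). Ndufs1 stood at 0.720 (0.668 to 0.776), with 1295 reads in siSRSF2. The nuclear genes of complex I went both ways, with a median of 0.11 and 25 of 36 above 0. Ndufb8, Ndufs7 and Ndufc1 had ratios of 1.39, 1.33 and 1.42, while Ndufa1 stood at 0.759 (0.677 to 0.850) and Ndufa9 at 0.811 (0.735 to 0.894).

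Most nuclear genes of complex V lay below siNC in siSRSF2, by little. The median log2 ratio was -0.07 over 17 nuclear genes, with 12 below 0, where 52.6% of all genes lay above 0. Intervals above 1 numbered 2 (11.8%) and below 1 numbered 5 (29.4%), against 28.1% and 25.4% of all genes. The share below 1 was thus near that background. All 5 small membrane subunits lay below siNC, 2 of them with an interval below 1. Atp5md, a small subunit that takes part in pairing the synthase into dimers, had 685 reads in siSRSF2 and 756 in siNC, a ratio of 0.761 (0.685 to 0.845). Atp5pb, with the reservation given above, had 3497 reads in siSRSF2 and 3596 in siNC (0.816, 0.779 to 0.855). Atp5c1, the axle of the motor, had 2718 and 2734 (0.835, 0.791 to 0.880). Atp5g1, which encodes the proton-carrying ring, had 1596 reads in siSRSF2 and 1187 in siNC, a ratio of 1.13 (1.05 to 1.22).

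The remaining complexes were mixed in siSRSF2. Medians were -0.03 for complex II, -0.05 for complex III and 0.06 for complex IV, and scaling by plain totals put complex II at 0.0093, the reverse sign. Sdhb stood at 1.23 (1.13 to 1.34) and Sdhd, a membrane anchor, at 0.925 (0.860 to 0.996). Uqcrh, the hinge subunit that helps cytochrome c dock, stood at 0.864 (0.797 to 0.936). Ndufa4 had 1682 reads in siSRSF2 and 1800 in siNC, a ratio of 0.784 (0.734 to 0.839), and Cox6b1 stood at 0.786 (0.725 to 0.852).

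Mitochondrial genes were lower in siSRSF2 than in siNC almost throughout. The median log2 ratio was -0.36 over 12 genes, and 11 intervals lay below 1 and 0 above, against 25.4% and 28.1% of all genes. Most of these genes have far more reads than most genes, so their intervals exclude 1 at smaller shifts and those shares are not a like background. Summed reads were 326594 in siSRSF2 and 350185 in siNC, a scaled ratio of 0.783. mt-Nd1 had 35508 reads in siSRSF2 and 43519 in siNC, a ratio of 0.685 (0.675 to 0.695). mt-Nd2 had 25151 reads in siSRSF2 and 30853 in siNC, a ratio of 0.684 (0.673 to 0.696). mt-Co1 had 138870 and 146927 reads in the same order, a ratio of 0.793 (0.788 to 0.799), and mt-Cytb stood at 0.791 (0.781 to 0.801). The least lowered genes partly or wholly outside the stretch were mt-Nd4 at 0.898 (0.881 to 0.916), mt-Nd5 at 0.835 and mt-Nd6 at 0.826. Inside it, mt-Co2 stood at 0.735 and mt-Atp6 at 0.768, while mt-Co3 stood at 1.02 (0.867 to 1.21). The median was -0.28 after GC correction and -0.39 after length correction, so its sign did not depend on them. Read counts of 13 genes from 1 library share the precursor transcripts of the mitochondrial genome and are not independent of each other.

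**Figure D4:**
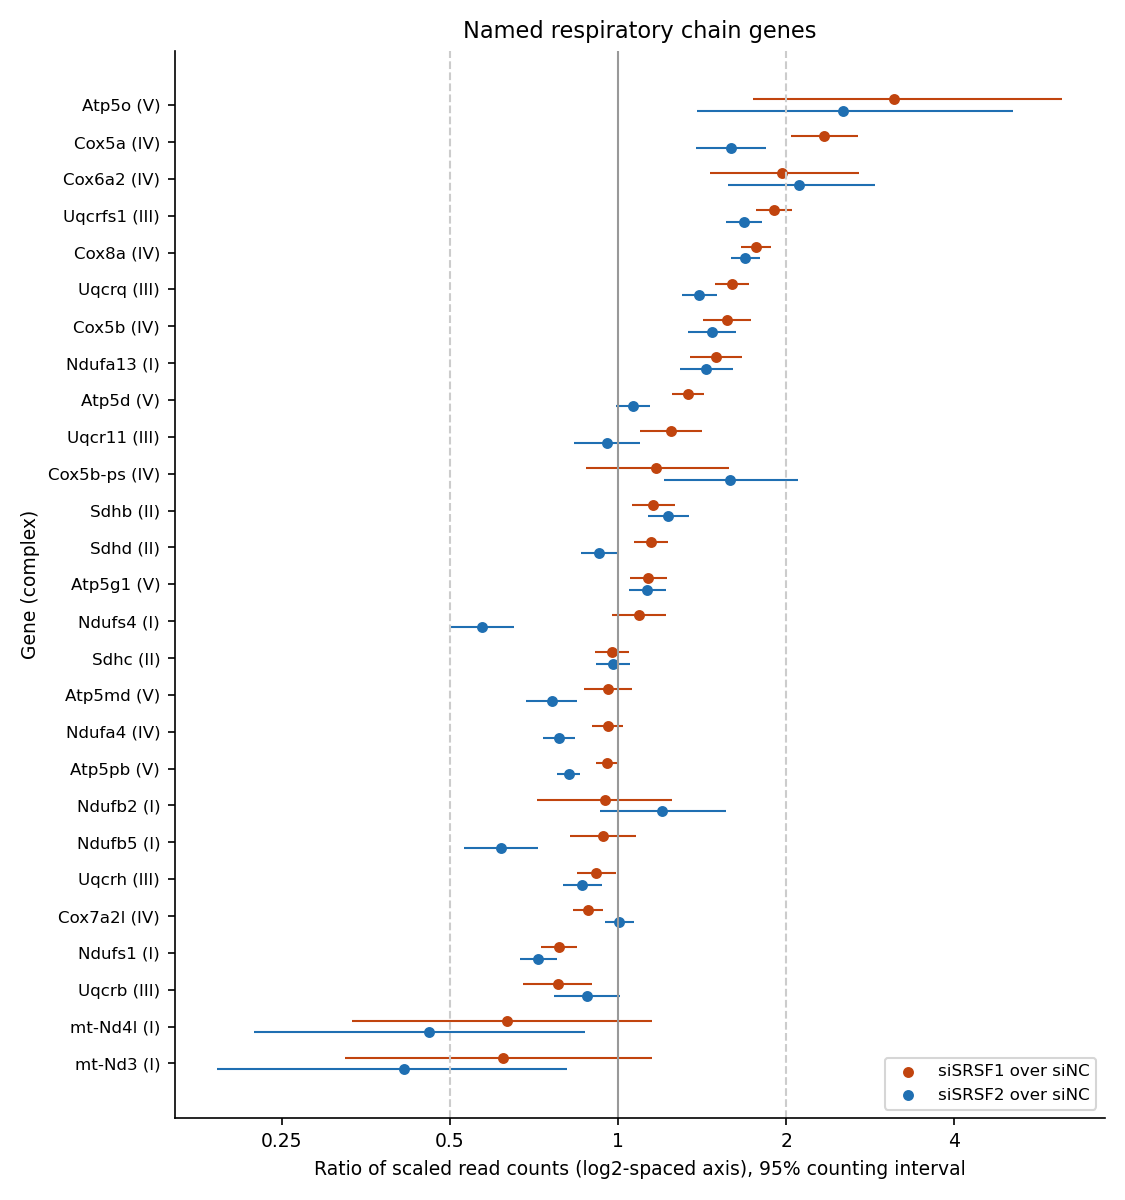
Ratios of scaled read counts over siNC for the members called or at the ends of their complex, and for Cox8a, Uqcrq, Cox5b and Ndufb5. Those last genes were added after their values were seen. The axis is log2-spaced with 95% counting intervals, siSRSF1 above siSRSF2 for each gene, and dashed lines mark 2-fold. Uqcrfs1 and Cox8a lie between 1.68 and 1.90 in both libraries, and Ndufs4 and Ndufb5 lie apart, at 0.571 and 0.618 in siSRSF2.

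The siRNA libraries were also set against each other, which leaves the control library out. Nuclear members had a median log2 ratio of 0.18 for siSRSF1 over siSRSF2 over 80 genes, with 60 above 0, 44 intervals above 1 and 7 below, against 49.3%, 29.0% and 29.1% of all 11705 genes compared. Mitochondrial genes had a median of 0.32 over 11 genes, with 10 above 0. The 2-fold rule called 0 members in either direction, while it marked 1.96% of all genes as higher and 2.4% as lower. At 1.5-fold 2 members were higher and 0 lower, against 5.78% and 7.61%.

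Those 2 were Ndufs4, with 716 reads in siSRSF1 and 391 in siSRSF2 (ratio 1.91, 1.69 to 2.17), and Ndufb5, with 438 and 301 (1.52, 1.31 to 1.77). All 17 nuclear genes of complex V lay above 0, with 11 intervals above 1, a median of 0.21 and Atp5md the highest at 1.26 (1.14 to 1.40). Atp5g1 was the lowest of them, at 1.00 (0.936 to 1.08). All 11 widely expressed subunits of complex IV lay above 0 too, from Cox7c at 1.03 to Cox5a at 1.47 (1.32 to 1.65). With plain totals 15 of the 17 and 10 of the 11 did, and after length correction 14 and 8 did, with a complex V median of 0.13. In complex III, Uqcr11 stood at 1.30 (573 reads in siSRSF1 and 459 in siSRSF2) and Uqcrb at 0.887. A pseudogene copies 38.4% of the Uqcr11 transcript, so the count of Uqcr11 is uncertain. In complex II, Sdhd stood at 1.24 and Sdhb at 0.940. Of the 7 nuclear members with an interval below 1, Cox5b-ps stood at 0.740 (0.574 to 0.948), and 5 belonged to complex I, among them Ndufc1 at 0.843 (0.741 to 0.958) and Ndufs3 at 0.880 (0.796 to 0.971). A pseudogene copies 75.7% of the Ndufs3 transcript, so its count is uncertain. Ndufb2, an accessory subunit of complex I, stood at 0.788 with an interval that includes 1 (0.609 to 1.02). Among mitochondrial genes, mt-Co1 stood at 1.27 (1.26 to 1.28), mt-Nd2 at 1.29 and mt-Nd1 at 1.25. mt-Nd6 alone of those compared lay below 1, at 0.847 (0.817 to 0.877). After length correction mt-Co3, mt-Atp6 and mt-Nd4 did too, at 0.865, 0.904 and 0.992.

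Gene length, as given in the table, moved with the nuclear shift. Nuclear members are short in the table, with a median of 1486.5 bases against 4666 over all genes compared. In siSRSF1 over siNC the shortest class of all genes (243 to 1916 bases) had a median log2 ratio of 0.17, and the 47 nuclear members in that class had 0.20. The longest class had -0.08. After a smooth length correction the nuclear median was 0.07 in siSRSF1 over siNC and 0.03 in siSRSF1 over siSRSF2, and the part of length in the shift was not tested further. The same correction turned the median of nuclear complex IV in siSRSF1 over siNC to -0.07 and that of nuclear complex I in siSRSF1 over siSRSF2 to -0.01. In the next classes, 1916 to 2986 and 2986 to 4666 bases, the members' medians were 0.12 and 0.17 against 0.08 and 0.01 for all genes. The 4 members of 4666 to 7145 bases had -0.02 against -0.01, and Ndufs1 alone in the class above had -0.35 against -0.05. In siSRSF2 over siNC the shortest class had 0.05 for all genes and 0.09 for members. Length-corrected ratios in siSRSF1 over siNC were 2.20 for Cox5a and 1.70 for Uqcrfs1, while Uqcrq, Cox8a and Cox5b fell short of 1.5-fold as given above. GC correction left the nuclear median at 0.14 and gave 2.37 for Cox5a, 1.94 for Uqcrfs1, 1.60 for Uqcrq, 1.55 for Cox8a and 1.59 for Cox5b.

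**Figure D5:**
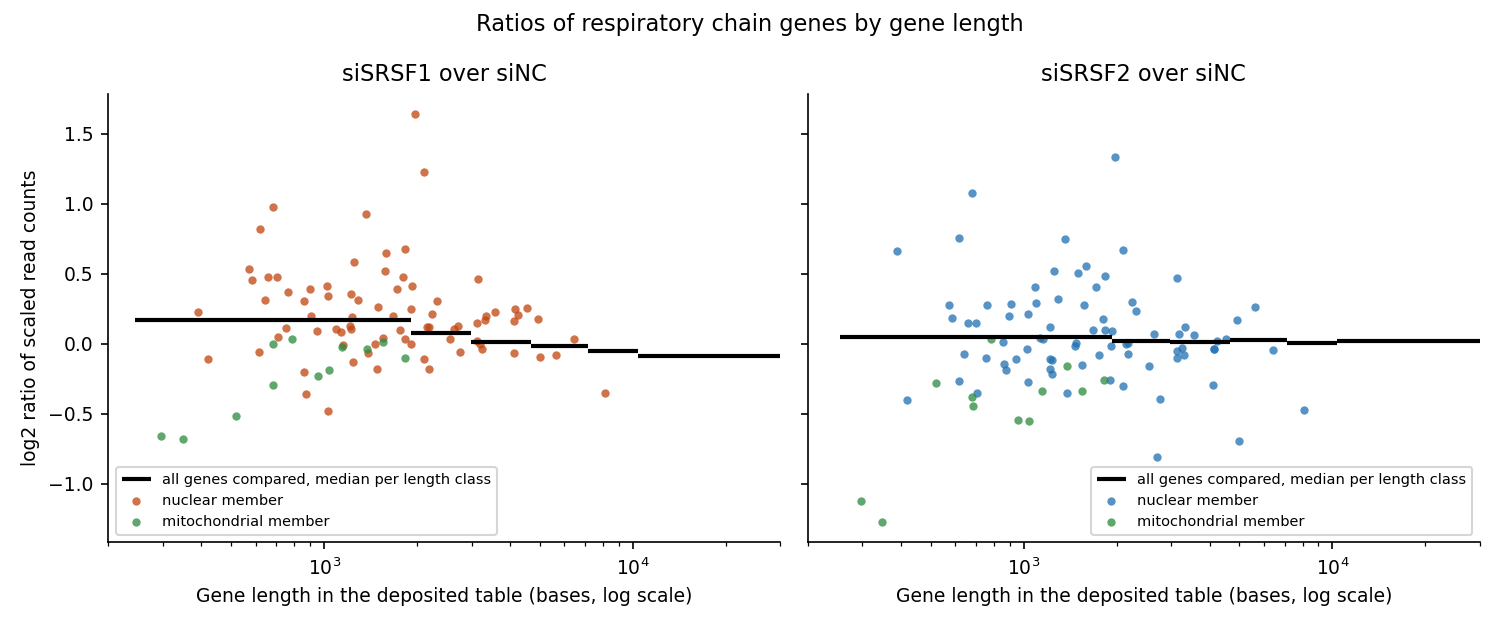
Log2 ratio of scaled read counts against gene length in the table (log axis) for nuclear and mitochondrial members, siSRSF1 over siNC on the left and siSRSF2 over siNC on the right; black bars are medians of all genes compared per length class. On the left the bars run from 0.17 in the shortest class to -0.08 in the longest, and the axis ends before the end of the longest class.

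Isoforms tied to other tissues were low or without reads, and their widely expressed partners carried the counts. Cox4i2, the isoform of lung, had 1 read in siSRSF1 and 0 in siSRSF2 and siNC, against 1818, 1663 and 1549 for Cox4i1. Cox8b, of heart and muscle, had 0 reads in siSRSF1, 3 in siSRSF2 and 0 in siNC, and Cox8c, of testis, had 0 in all. Cox7a1, of muscle, had 19, 13 and 16 reads in siSRSF1, siSRSF2 and siNC, against 1444, 1312 and 1186 for Cox7a2. Cox6b2 and Cox7b2, both testis isoforms, had at most 15 and 8 reads, and their partners Cox6b1 and Cox7b had at least 1156 and 807. Ndufa4l2, which replaces Ndufa4 under low oxygen, had 12, 22 and 15 reads in siSRSF1, siSRSF2 and siNC. Cox6a2 was the exception, at 14.4 FPKM in siSRSF1, 15.9 in siSRSF2 and 7.30 in siNC, beside 294, 241 and 211 FPKM for Cox6a1. Cox6a1 itself had ratios to siNC of 1.39 in siSRSF1 and 1.11 in siSRSF2, and GC correction moved them to 1.21 and 1.00.

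Promoters of nuclear respiratory genes are known for sites of NRF1, GABP and YY1, factors that tie their transcription together. RefSeq promoters of GRCm38.p6 (250 bases before to 50 after each start) matched 69 of the 86 nuclear members, with 74 promoters. On either strand, the palindromic NRF1 consensus lay in 6.76% of them, against 2.1% of promoters of genes with at least 20 reads and 0.971% of all promoters. The GABPA motif CCGGAAG lay in 23% of member promoters, against 17.6% and 8.86%, and the YY1 motif AAGATGGC in 13.5%, against 4.46% and 2.75%. At least 1 of them lay in 39.2% of member promoters, 22.7% of those of expressed genes and 11.9% of all.

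The promoters of Cox5a, the well counted member called in siSRSF1, and of Cox8a, the nuclear member of highest FPKM there, are shown because the genes lie above siNC together and differ in these motifs. Capitals mark a motif match.

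Cox5a (chr9:57520982-57521281, plus strand): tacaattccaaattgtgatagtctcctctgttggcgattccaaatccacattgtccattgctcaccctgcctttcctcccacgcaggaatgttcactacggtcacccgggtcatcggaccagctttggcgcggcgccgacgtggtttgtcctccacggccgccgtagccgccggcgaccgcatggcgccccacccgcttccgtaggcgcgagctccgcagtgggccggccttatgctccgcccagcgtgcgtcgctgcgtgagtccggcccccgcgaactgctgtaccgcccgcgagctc
Cox8a (chr19:7217567-7217866, minus strand): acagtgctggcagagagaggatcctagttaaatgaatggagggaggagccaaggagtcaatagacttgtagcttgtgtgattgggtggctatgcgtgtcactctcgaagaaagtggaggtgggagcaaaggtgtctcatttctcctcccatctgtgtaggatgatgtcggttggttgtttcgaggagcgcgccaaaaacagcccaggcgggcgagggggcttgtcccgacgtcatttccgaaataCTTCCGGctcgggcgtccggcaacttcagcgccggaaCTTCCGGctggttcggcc

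Cox8a holds 2 matches to the GABPA motif, both on the strand opposite the one printed and so written in the sequence as the reverse complement CTTCCGG. The Cox5a promoter holds 0 matches to the 3 motifs, and so does that of Uqcrfs1. A missing match says only that these letters are not in this window.

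Genes that build or feed the chain were read from 5 lists, whose calls stand beside the background shares given above. Of 21 subunits and electron carriers outside the symbol rule, 20 were compared and 0 called in any comparison, with medians of 0.16 in siSRSF1 over siNC and 0.17 in siSRSF2 over siNC. Cycs, the cytochrome c that carries electrons between complexes III and IV, had 2144 reads in siSRSF1, 1599 in siSRSF2 and 1790 in siNC, ratios to siNC of 1.05 and 0.750 (0.701 to 0.803). Coq3 and Coq4, of ubiquinone synthesis, stood at 1.43 and 0.838 in siSRSF1 and at 1.27 and 1.20 in siSRSF2. Coq10b, a ubiquinone-binding protein, stood at 0.607 and 0.659, and Dhodh, which feeds electrons from pyrimidine synthesis into ubiquinone, at 1.31 and 1.52.

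Assembly factors held the largest ratios near the chain. Of 58 in the table, 54 were compared in siSRSF1 over siNC, 2 called higher and 1 lower, with a median of 0.12. In siSRSF2 over siNC 53 were compared, 2 called higher and 2 lower, with a median of 0.05. Cox11, which delivers copper to mt-Co1, had 107 reads in siSRSF1, 93 in siSRSF2 and 20 in siNC, ratios to siNC of 4.61 (2.89 to 7.99) and 3.84 (2.39 to 6.68). Ndufaf6, a factor of early complex I assembly, had 217 reads in siSRSF1, 253 in siSRSF2 and 89 in siNC, ratios of 2.13 (1.66 to 2.77) and 2.38 (1.87 to 3.07). Length correction put its siSRSF1 ratio at 1.88, below the size rule.

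Lyrm7 and Cox16 lay on the other side. Lyrm7, the chaperone that holds the Rieske protein encoded by Uqcrfs1 before insertion, had 29 reads in siSRSF1, 28 in siSRSF2 and 57 in siNC, ratios of 0.451 (0.275 to 0.710) and 0.417 (0.253 to 0.659). Cox16, of complex IV assembly, had 11 reads in siSRSF2 and 25 in siNC (0.381, 0.164 to 0.778). Coa5 stood at 0.574 in siSRSF1 and 0.855 in siSRSF2, and Taco1, which activates translation of mt-Co1, at 0.779 and 0.581 (0.443 to 0.755). Between the siRNA libraries 0 of 53 were called, and Tmem242 stood at 1.51 and Sdhaf3 at 0.612.

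Of 37 genes that maintain mitochondrial DNA or make and handle its RNA, 35 were compared in siSRSF1 over siNC, with 0 called higher, 1 lower and a median of -0.07. In siSRSF2 over siNC 36 were compared, 0 called, with a median of -0.06. Mterf2, of the transcription termination factor family, had 42 reads in siSRSF1, 60 in siSRSF2 and 81 in siNC, ratios to siNC of 0.458 (0.306 to 0.668) and 0.624 (0.438 to 0.879). Trmt10c, a subunit of the mitochondrial RNase P that cuts the precursor transcripts, had 251 reads in siSRSF1, 414 in siSRSF2 and 416 in siNC, ratios of 0.530 (0.451 to 0.620) and 0.836. Tfb2m, the initiation factor of the mitochondrial RNA polymerase, had 411 reads in siSRSF1, 332 in siSRSF2 and 426 in siNC, ratios of 0.846 and 0.655 (0.565 to 0.757). Lonp1, a matrix protease, stood at 1.59 and 1.41, and Fastkd2, an RNA-binding protein of mitochondrial ribosome assembly, at 1.13 and 1.53. Top1mt, the mitochondrial topoisomerase, stood at 1.60 in siSRSF1 over siSRSF2, where the list had a median of -0.16 and 0 calls.

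Of 15 nuclear regulators, 14 were compared. Medians were 0.07 in siSRSF1 over siNC (-0.05 after GC correction) and 0.11 in siSRSF2 over siNC, and -0.19 between the siRNA libraries, where 11 of 14 lay below 0. Esrrg, an orphan nuclear receptor that drives oxidative genes in mature beta cells, was the called gene. It had 140 reads in siSRSF1, 335 in siSRSF2 and 266 in siNC, ratios of 0.463 (0.373 to 0.569) for siSRSF1 over siNC, 1.06 for siSRSF2 over siNC and 0.437 (0.356 to 0.533) for siSRSF1 over siSRSF2. Its relative Esrra had 568, 341 and 345 reads in the same libraries and ratios to siNC of 1.44 (1.26 to 1.66) and 0.830. GC correction moved the ratio of Esrra in siSRSF1 to 1.15. Myc stood at 1.06 in siSRSF1 and 1.60 in siSRSF2, and the coactivator Pprc1 at 1.08 and 0.823.

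The TCA cycle, which supplies the NADH, had 25 of 26 genes compared, and 0 were called. Medians were 0.00 in siSRSF1 over siNC, -0.10 in siSRSF2 over siNC and 0.14 between the siRNA libraries. In siSRSF2 over siNC, 11 intervals (44%) lay below 1 and 4 (16%) above, against 25.4% and 28.1% of all genes. Mdh1, the cytosolic malate dehydrogenase of the shuttle that brings NADH electrons in, had 5592 reads in siSRSF1, 4252 in siSRSF2 and 5132 in siNC, ratios of 0.956 and 0.696 (0.668 to 0.724). Idh3a, the catalytic subunit of isocitrate dehydrogenase, stood at 1.14 in siSRSF1 and 0.780 in siSRSF2. Mpc2, of the pyruvate carrier, stood at 1.54 and 1.44, Pdk3, which switches pyruvate dehydrogenase off, at 0.823 and 0.754, and Pdhx at 1.05 and 1.20.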

How the data were processed

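Reads came from 3 RNA libraries of MIN6 cells, 1 per siRNA, made from RNA extracted with Trizol, per the labels' protocols. The deposited table holds, per the file headers, a whole-number read count and an FPKM per gene and library. Bowtie2 2.4.2 and GRCm38 are named in the submitters' processing notes. The sources used here name neither the counting tool, nor its treatment of reads with several matches, nor strand. The authors' FPKM equals count over table length and total within 0.00045%.

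Lines sharing a symbol were summed. Counts were scaled by TMM (edgeR 4.0.16, R 4.3.3), which gave factors of 0.990 for siSRSF1, 1.020 for siSRSF2 and 0.991 for siNC. Ratios used a prior of 0.5 reads and exact Clopper-Pearson 95% intervals (SciPy 1.17.1), which cover counting error only. Length and GC corrections were lowess fits (fraction 0.3) over all genes compared. With 1 library a group, no model was fitted and no p-value is given. The ratio step was tested on simulated data. Copies were found with BLAST 2.17.0 among GENCODE M21 transcripts (at least 97% identity over 50 bases).

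Members were chosen by the symbol rule and not by a measured value. Earlier results of these data were known when the rule and the lists were set. Named genes were the targets, all mitochondrial genes, members called, the highest and lowest ratio per complex among genes with 100 reads, tissue isoforms, and per list the called genes and both ends. Other members are given as examples of their group and were chosen after their values were seen. Of the list entries, Minos1, Usmg5 (an older symbol of the member Atp5md), Coa1 and Fastkd4 had no match.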

Additional observations from a re-analysis of the deposited data

How the results depend on the processing

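No paired analysis was possible because each group holds 1 library. The medians over all nuclear members and the calls kept their direction under plain totals, median-of-ratios scaling (DESeq2 1.42.0) and a prior of 2 reads. They also did so under TMM scaling without the mitochondrial or the insulin genes. In siSRSF1 over siNC the mitochondrial median log2 ratio of -0.14 was -0.18 with no minimum of reads, -0.0675 with a minimum of 100, -0.10 without the genes of the copied stretch, -0.33 after length correction and 0.0393 after GC correction, a reversal whose cause was not tested. Its 2 members called higher became 1 at a minimum of 100 reads, which removes Atp5o, and 7 at 1.5-fold, and its 0 called lower became 2 after length correction, mt-Nd3 (0.480) and mt-Nd4l (0.479). In siSRSF2 over siNC the mitochondrial median of -0.36 was -0.318 with plain totals and -0.28 after GC correction. Its 2 called higher became 1 at a minimum of 100 reads and 6 at 1.5-fold, and its 2 called lower became 0 and 4. In siSRSF1 over siSRSF2 the nuclear median of 0.18 was 0.0306 after length correction. The mitochondrial median of 0.32 was 0.27 with plain totals, 0.24 at a minimum of 100 reads, 0.10 after length correction and 0.39 after GC correction. Its 0 called higher became 1 with no minimum of reads, Cox6b2 (15 and 5 reads), and 2 at 1.5-fold. At 1.5-fold with length correction, siSRSF1 over siNC had 4 members higher and 5 lower (1 lower, Ndufb9, with GC correction), and siSRSF1 over siSRSF2 had 1 lower, Cox5b-ps. These combinations, and the 2 alternatives that leave out genes with copies or the copied stretch, were chosen after seeing the data. With 1 library a group, leaving out a replicate could not be run. Counts limit the tissue isoforms, mt-Nd3 and mt-Nd4l, where intervals are wide.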
